A study of Mus musculus with 10 samples.

Results

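The genes described here are 10 members of the unfolded protein response of the endoplasmic reticulum (ER), Hspa5, Hsp90b1, Xbp1, Atf6, Ern1, Dnajb9, Pdia4, Edem1, Herpud1 and Sdf2l1. They were chosen by name, each was found once among the 54343 gene symbols of the table, and all 10 were among the 11110 genes expressed highly enough to be tested. RNA sequencing compared 2 cultured mouse tumour lines, with 5 libraries each. Parental MC38 is labelled wild type. MC38.T4 is labelled as having low mesothelin expression. It descends from MC38 cells carrying a human mesothelin plasmid, which were cloned, grown as tumours in C57/BL6 mice, returned to culture for 10 generations and cloned once more, so it is a single clone with an in vivo passage behind it. The genetic change, both rounds of cloning and the passage therefore all separate the lines and cannot be told apart. Both lines grew in the same serum-containing RPMI medium, and no agent that causes ER stress is named in the labels.

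When unfolded proteins build up in the ER, 3 membrane sensors respond: IRE1 (encoded by Ern1), ATF6 and PERK (Eif2ak3). IRE1 splices the mRNA of Xbp1 into a form that encodes an active transcription factor, ATF6 is cut in the Golgi to release one, and PERK slows translation and favours ATF4. Together they raise genes for chaperones, for disulfide formation and for ER-associated degradation (ERAD), and secretory and fast-growing tumour cells are known to depend on them. The values here are FPKM, fragments of a whole gene scaled by its length and by the total of the library, and they show mRNA amount and neither the splicing of Xbp1 nor the cutting of ATF6. Because of the scaling by length, levels are set side by side between genes as deposited. The annotation and the handling of reads shared by paralogues are not known, so levels and orders between genes are approximate.

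Libraries were of like depth, at 0.874 to 1.14 times that of MC38 replicate 1 as read from the spacing of low values. A pair of libraries stood apart. MC38 replicate 1 had the lowest FPKM sum (442183, against 466802 to 484460 in the other libraries), and Malat1, a nuclear RNA, was at 124.8 FPKM in MC38.T4 replicate 4 and at 53.1 to 75.9 in the rest of that line. The FPKM sums of the lines did not overlap, at 442183 to 477015 in MC38 and 478019 to 484460 in MC38.T4. The labels call the cells both colon carcinoma and melanoma. The epithelial markers Epcam, Cdh1, Krt8, Krt18, Krt20 and Cdx2 summed to at most 0.0534 FPKM in MC38 and 1.40 in MC38.T4, with Cdx2 listed at 0 throughout. Most of the MC38.T4 sum was Cdh1, at 0.0212 ± 0.0080 FPKM in MC38 and 1.00 ± 0.070 in MC38.T4. Krt8 went from 0.0118 ± 0.013 to 0.187 ± 0.045 FPKM, and neither gene overlapped between the lines. The melanocyte markers Tyr, Dct, Mlana, Pmel and Mitf summed to 1.19 to 1.51 FPKM in MC38 and 1.85 to 2.06 in MC38.T4. Tyr was listed at 0 throughout. Most of the melanocyte sum was Mitf, a transcription factor gene that went from 0.781 ± 0.14 to 1.74 ± 0.096 FPKM. Of the melanocyte markers only Mitf had a higher mean in MC38.T4. Pmel was lower there, with 0.178 ± 0.014 FPKM in MC38.T4 against 0.522 ± 0.085 in MC38 and no overlap. Mlana (means 0.028 in MC38, 0.0065 in MC38.T4) and Dct (0.0046 and 0) lay at trace levels. Whether each library had a culture of its own is not stated, so the spread behind the p-values may be technical.

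The 10 genes did not move together between the lines. In MC38.T4 the chaperone gene Hspa5, its co-chaperone gene Dnajb9 and the sensor gene Atf6 were each less than 0.5 times as high as in MC38, Pdia4 was 2.07-fold higher, and Sdf2l1 and Edem1 were higher by smaller factors. Ern1, Xbp1 and Herpud1 were modestly lower, and Hsp90b1 stood almost level. With limma all 10 had an adjusted p below 0.05 (4 higher, 6 lower), which is little to read from, since 86.0% of all tested genes passed, 43.1% higher and 42.9% lower. Of the 10 genes 4 passed with a 2-fold change or more of FPKM + 1, 1 higher and 3 lower, against 17.2% of tested genes. The lines did not overlap in 8 of the 10 genes, against 77.4% of tested genes. The median log2 change was -0.19 over the 10 genes and 0.00077 over all tested genes, and the median size of the change, regardless of sign, was 0.61 against 0.47.

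**Figure D1:**
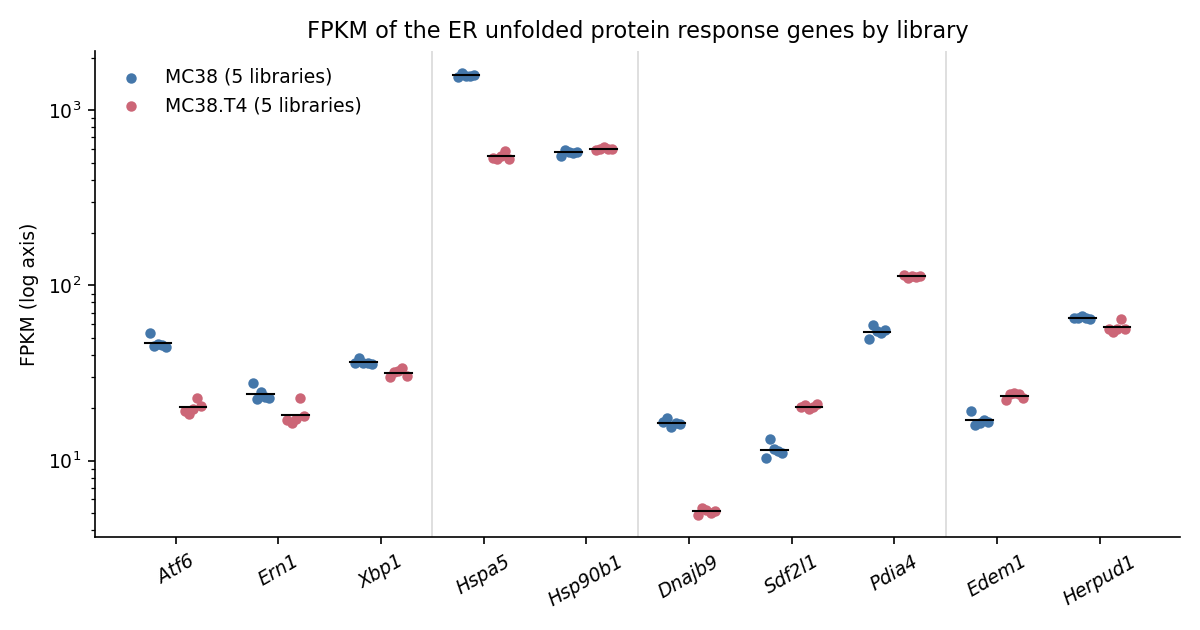
FPKM (log axis) of each of the 10 genes in the 5 MC38 and 5 MC38.T4 libraries, with a short black line at the mean of each line. Grey lines part the sensors and Xbp1, the abundant chaperones, the co-chaperones and Pdia4, and the degradation genes. Hspa5 drops from 1586 to 545.4 FPKM on average while Hsp90b1 goes from 574.7 to 604.8 FPKM.

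Of the sensor genes Atf6 and Ern1 were lower in MC38.T4, as was Xbp1, while Eif2ak3, described with its arm further on, did not pass the test. Atf6, the membrane-bound transcription factor, stood at 53.7, 45.4, 46.2, 45.7 and 44.4 FPKM in MC38 and at 19.2, 18.4, 19.8, 22.9 and 20.5 in MC38.T4. Every MC38 library lay far above every MC38.T4 library. The means were 47.1 ± 3.8 and 20.2 ± 1.7 FPKM (SD, n = 5 each), a 2.33-fold fall (log2 change on the scale of FPKM + 1, used throughout, -1.18, SE 0.06, limma adjusted p = 6.77e-11). An exact permutation test, with 252 ways to assign the libraries, gave a two-sided p of 0.00794, the smallest it can give, and gave this same value for each of the 8 genes whose lines did not overlap.

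Ern1, the kinase and ribonuclease IRE1, stood at 27.8, 22.5, 24.5, 23.2 and 22.8 FPKM in MC38 and at 17.1, 16.4, 17.2, 22.8 and 17.9 in MC38.T4. The lines overlapped through MC38.T4 replicate 4 alone, whose value reached the lowest MC38 libraries. The log2 change was -0.39 (SE 0.08, limma adjusted p = 0.000585, exact permutation p = 0.0238). Without MC38.T4 replicate 4 the MC38.T4 mean was 17.2 ± 0.59 FPKM (n = 4), the lines no longer overlapped and the log2 change was -0.47.

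Xbp1, the transcription factor gene whose mRNA IRE1 splices, stood at 36.3, 38.6, 35.9, 36.1 and 35.5 FPKM in MC38 and at 29.8, 32.2, 32.5, 33.6 and 30.2 in MC38.T4. The lines were close but separate, and the fall was 1.15-fold (log2 change -0.20, SE 0.04, limma adjusted p = 0.000205). Since Atf6 fell more than Xbp1, their order turned: Xbp1 stood at 0.779 ± 0.063 of the Atf6 level in MC38 and at 1.58 ± 0.12 times that level in MC38.T4, with no overlap. Ern1 over Xbp1 was 0.663 ± 0.067 and 0.577 ± 0.066, and here the lines overlapped.

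The 2 most abundant genes of the set encode the main ER chaperones, and they parted between the lines. Both are textbook targets of the ER stress response element (ERSE), a CCAAT box and a CCACG box held at a fixed spacing, and Herpud1 is one of the compact element ERSE-II. These promoters are shown because Hspa5, Hsp90b1 and Herpud1 were the only ones of 9 genes with a RefSeq promoter window (250 bases before to 50 after the start) that held an exact match to either element. The letters searched were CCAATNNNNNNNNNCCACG for ERSE and ATTGGNCCACG for ERSE-II, on both strands. Capitals mark the fixed letters of each match, and each stretch is written 5′ to 3′ along the gene, from RefSeq on GRCm38.p6.

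Hspa5, chr2:34772010-34772058, plus strand, bases -80 to -32 before the start:
Hspa5: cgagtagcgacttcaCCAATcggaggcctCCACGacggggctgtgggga
Hsp90b1, chr10:86705518-86705671, minus strand, bases -227 to -74:
Hsp90b1: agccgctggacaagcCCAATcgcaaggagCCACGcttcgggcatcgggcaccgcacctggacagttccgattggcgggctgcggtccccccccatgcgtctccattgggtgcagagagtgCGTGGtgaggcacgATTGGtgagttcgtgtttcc
Herpud1, chr8:94386362-94386402, plus strand, bases -67 to -27:
Herpud1: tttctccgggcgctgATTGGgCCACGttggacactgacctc

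Hspa5 held 1 ERSE in the direction of the gene. Hsp90b1 held 2, the one nearer the start on the opposite strand. An exact ERSE was found in 0.137% of the 27025 genes with a window and an exact ERSE-II in 0.0444%. None of the 9 windows held the UPRE core TGACGTGG or the palindrome TGACGTCA, found in 0.714% and 2.03% of genes. The UPRE core ends in the reverse complement of the CCACG box, so these motifs can overlap, and a match describes the sequence, not binding.

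Hspa5, which encodes BiP, the HSP70 of the ER lumen that also holds the sensors inactive, stood at 1548, 1637, 1578, 1578 and 1588 FPKM in MC38. In MC38.T4 it stood at 536.8, 530.2, 549.6, 584.1 and 526.2 FPKM. The lines were widely separate, and MC38.T4 replicate 4 was the highest of its line. The fall was 2.91-fold (means 1586 ± 33 and 545.4 ± 23, log2 change -1.54, SE 0.04, 95% interval -1.62 to -1.46, limma adjusted p = 1.72e-14). Hspa5 ranked 21 among all genes by mean FPKM in MC38 and 133 in MC38.T4, and it held 0.341% ± 0.0059 and 0.113% ± 0.0044 of all FPKM.

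Hsp90b1, which encodes GRP94, the HSP90 of the ER, stood at 548.2, 593.9, 581.6, 574.1 and 575.6 FPKM in MC38. In MC38.T4 it stood at 597.1, 602.7, 617.1, 602.7 and 604.3 FPKM. All MC38.T4 libraries lay above all MC38 libraries. The log2 change was 0.07 (SE 0.03, 95% interval 0.0027 to 0.15, limma adjusted p = 0.0498), and the call is not a firm one: it was lost in 14 of 21 alternatives, in 9 of which a single library was left out, and quantile normalization gave a fall (log2 change -0.16, adjusted p = 0.000104).

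The FPKM of Hspa5 was thus 2.76 ± 0.040 times that of Hsp90b1 in MC38 and 0.902 ± 0.039 times that of Hsp90b1 in MC38.T4. The ratio lay between 2.71 and 2.82 in the MC38 libraries and between 0.871 and 0.969 in the MC38.T4 libraries, so the order of the 2 genes turned in every library. Hspa5 took 65.2% ± 0.17 of the summed FPKM of the 10 genes in MC38 and 37.9% ± 0.77 in MC38.T4, and Hsp90b1 took 23.6% ± 0.31 and 42.0% ± 0.94. The sum of all 10 genes was 2433 ± 49 FPKM in MC38 and 1440 ± 34 in MC38.T4. Without Hspa5 the sum was 847.4 ± 17 and 894.6 ± 12 FPKM, so the lower total was carried by Hspa5.

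**Figure D2:**
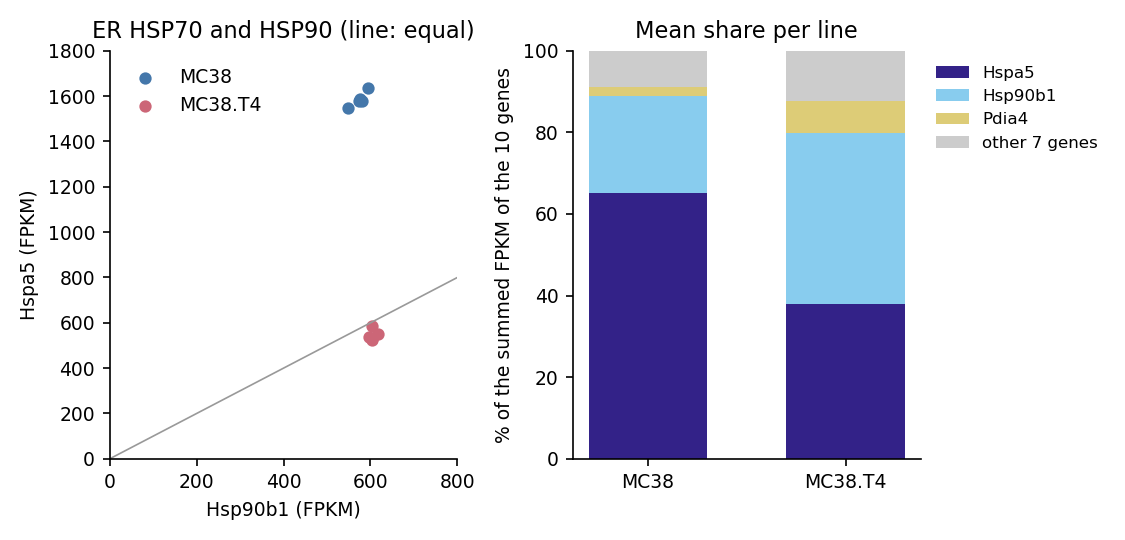
Left, Hspa5 against Hsp90b1 in FPKM, a point per library, with a grey line where both would be equal. Right, the mean share of the summed FPKM of the 10 genes in each line. The MC38 points lie far above the line of equality and the MC38.T4 points just below it, and the Hspa5 share goes from 65.2% to 37.9%.

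The co-chaperone genes and Pdia4 also went both ways. Dnajb9 encodes ERdj4, a J-domain partner of BiP that represses IRE1. It stood at 16.6, 17.5, 15.7, 16.3 and 16.1 FPKM in MC38 and at 4.89, 5.34, 5.23, 5.05 and 5.16 in MC38.T4. The lines were far apart, and the 3.20-fold fall of the FPKM mean was larger than the 2.91-fold of Hspa5, while its log2 change of -1.51 (SE 0.04, limma adjusted p = 2.36e-14) was slightly smaller, because the added 1 weighs more on a low gene.

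Sdf2l1 encodes an ER-resident partner of the J-domain protein DNAJB11. It stood at 10.3, 13.2, 11.6, 11.3 and 11.02 FPKM in MC38 and at 20.2, 20.7, 19.7, 20.1 and 20.9 in MC38.T4. All MC38.T4 libraries were higher (1.77-fold, log2 change 0.77, SE 0.05, limma adjusted p = 1.33e-09).

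Pdia4, which encodes the disulfide isomerase ERp72, stood at 49.5, 59.7, 54.8, 53.3 and 55.5 FPKM in MC38 and at 115.4, 110.1, 113.8, 112.4 and 113.7 in MC38.T4. It had the largest rise of the set (2.07-fold, log2 change 1.04, SE 0.04, limma adjusted p = 3.94e-12). Relative to Hspa5 it went from 3.44% ± 0.17 to 20.8% ± 0.94 of the Hspa5 level.

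Of the 2 degradation genes 1 rose and 1 fell. Edem1 encodes a lectin that directs misfolded glycoproteins to ERAD. It stood at 19.2, 16.04, 16.3, 17.03 and 16.7 FPKM in MC38 and at 22.2, 24.2, 24.2, 24.01 and 22.9 in MC38.T4. The lines were separate, with MC38 replicate 1 nearest to MC38.T4 (1.38-fold, log2 change 0.44, SE 0.05, limma adjusted p = 3.08e-07).

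Herpud1 encodes HERP, a membrane scaffold of the ERAD ligase complex. It stood at 65.3, 65.5, 67.2, 65.0 and 64.3 FPKM in MC38 and at 56.8, 54.1, 56.2, 64.6 and 56.5 in MC38.T4. As with Ern1, MC38.T4 replicate 4 alone reached into the MC38 range, and the other MC38.T4 libraries were at most 56.8 (log2 change -0.18, SE 0.04, limma adjusted p = 0.000855, exact permutation p = 0.0159). Without that library the log2 change was -0.22 (limma adjusted p = 8.01e-06).

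MC38.T4 replicate 4 was the highest of its line in 5 of the 10 genes (Hspa5, Xbp1, Atf6, Ern1 and Herpud1), all of them lower in MC38.T4, and the lowest in 0. MC38 replicate 1 was the highest of its line in 3 genes and the lowest in 4. The part of these libraries' other features in those values was not tested. Without either or both of them, the other 9 genes kept their direction and call, and Hsp90b1 was lost (adjusted p = 0.0827 without both).

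**Figure D3:**
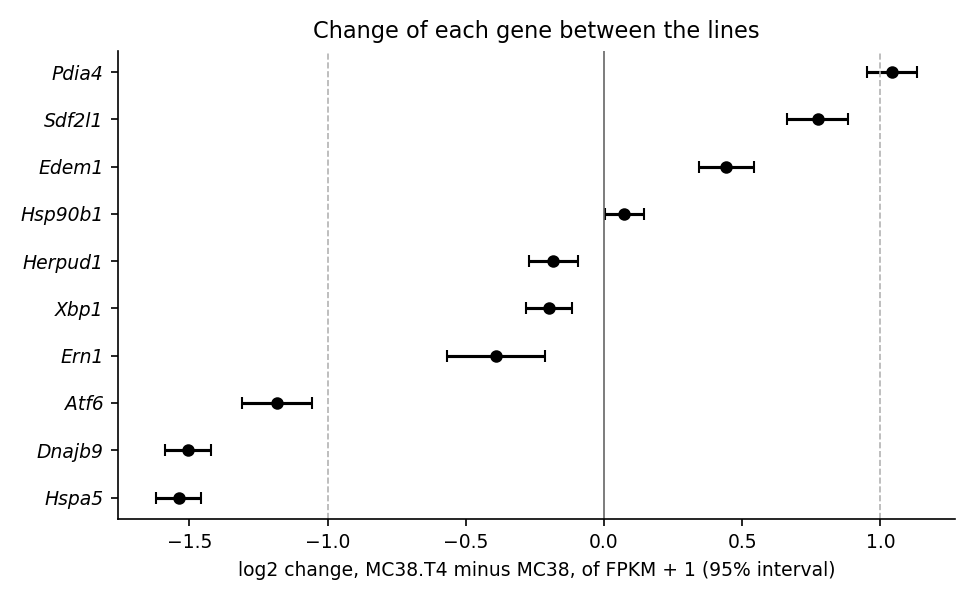
Log2 change of FPKM + 1 (MC38.T4 minus MC38) of each gene, with the 95% interval from limma. Dashed lines mark a 2-fold change. Pdia4, at 1.04, and Hspa5, at -1.54, end the range, and the interval of Hsp90b1 starts at 0.0027.

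By level, the order in MC38 was Hspa5, Hsp90b1, Herpud1, Pdia4, Atf6, Xbp1, Ern1, Edem1, Dnajb9 and Sdf2l1. The ranges of Edem1 and Dnajb9 overlapped. Those of Pdia4 and Atf6 overlapped through MC38 replicate 1, where Pdia4 was at 49.5 and Atf6 at 53.7 FPKM, while Pdia4 was the higher in every other MC38 library. In MC38.T4 the order was Hsp90b1, Hspa5, Pdia4, Herpud1, Xbp1, Edem1, Sdf2l1, Atf6, Ern1 and Dnajb9. Here Sdf2l1 overlapped Atf6 and Atf6 overlapped Ern1. Sdf2l1 was the lowest in MC38 and Dnajb9 in MC38.T4. They went from 11.5 ± 1.1 and 16.4 ± 0.67 FPKM in MC38 to 20.3 ± 0.49 and 5.13 ± 0.17 in MC38.T4.

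Genes around the sensors went both ways, at shares near those of all tested genes. Of 9 tested genes for sensors and their processing 4 rose, 4 fell and Eif2ak3 did not pass, where 43.1% of all tested genes rose and 42.9% fell. Atf6b, the paralogue of Atf6, went from 4.09 ± 0.35 to 21.7 ± 0.71 FPKM (5.32-fold, log2 change 2.16, limma adjusted p = 6.06e-15), the opposite direction to Atf6. Atf6 was thus 47.1 against 4.09 FPKM for Atf6b in MC38, and 20.2 against 21.7 in MC38.T4. Mbtps1 and Mbtps2 encode the site-1 and site-2 proteases that cut ATF6 in turn. Mbtps1 rose from 18.6 ± 0.91 to 45.1 ± 0.82 FPKM while Mbtps2 fell from 15.03 ± 0.46 to 9.52 ± 0.50. Creb3l2, a transcription factor of the same membrane-bound kind as ATF6, rose 3.24-fold, while Creb3, also of that kind, fell from 29.8 ± 1.7 to 19.7 ± 0.52 FPKM. Traf2, an adaptor that binds active IRE1, fell from 24.6 ± 1.8 to 15.6 ± 0.70 FPKM. Mbtps1 and Creb3 were named after their values were seen.

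In the PERK arm and integrated stress response list 4 of 15 genes rose and 10 fell, 6 of them at least 2-fold in FPKM + 1. Over all tested genes 42.9% fell, and 7.14% fell at least 2-fold on that scale, which understates changes of low genes. The median log2 change of the list was -0.60. Eif2ak3, the kinase PERK, stood at 6.17 ± 0.41 and 6.53 ± 0.18 FPKM (log2 difference 0.07, limma adjusted p = 0.141). Its test was passed without MC38 replicate 1, the highest of its line (adjusted p = 0.0149). Atf4, the transcription factor made when eIF2alpha is phosphorylated, went from 319.01 ± 18 to 362.9 ± 21 FPKM. Ddit3, which encodes CHOP, went the other way, with 304.6, 335.1, 341.4, 342.1 and 352.4 FPKM in MC38 and 80.4, 72.8, 75.7, 88.8 and 79.6 in MC38.T4. The Ddit3 values of the lines were far apart (4.22-fold, log2 change -2.06, limma adjusted p = 2.01e-14). Atf5 rose 1.61-fold. Ppp1r15a had a log2 change of -3.33. Atf3 was at 40.99 ± 1.8 FPKM in MC38 and at 0.0322 ± 0.021 in MC38.T4, and since the second level is far below the added 1, its log2 change of -5.35 became -8.29 with 0.1 added instead.

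Of 21 genes for ER chaperones and co-chaperones 10 rose, 8 fell and 3 did not pass, with a median log2 change of 0.08. These counts are near the shares over all tested genes (43.1% higher, 42.9% lower). Calr, the lectin chaperone calreticulin, stood at 119.7, 133.9, 132.2, 128.2 and 136.7 FPKM in MC38 and at 406.2, 425.6, 427.6, 403.8 and 429.9 in MC38.T4. That is a 3.22-fold rise with no overlap (log2 change 1.68, limma adjusted p = 1.06e-14). Fkbp2, a prolyl isomerase of the ER, rose 2.94-fold. Sdf2, the paralogue of Sdf2l1, fell from 53.5 ± 2.5 to 31.2 ± 0.43 FPKM where Sdf2l1 rose. Serp1, which is no chaperone but a small protein of the translocon, fell from 125.9 ± 6.6 to 42.4 ± 2.3 FPKM.

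Of 15 tested genes for disulfide formation 7 rose, 5 fell and 3 did not pass (median log2 change 0.09), against 43.1% higher and 42.9% lower over all tested genes. Beside Pdia4, Erp29 rose 2.10-fold and Pdia6, another disulfide isomerase gene, from 114.2 ± 4.6 to 169.7 ± 3.3 FPKM. Pdia5 fell from 31.7 ± 1.1 to 19.8 ± 1.0 FPKM and the oxidase gene Ero1b from 7.01 ± 0.12 to 4.04 ± 0.26.

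Among the ERAD genes 19 of 28 tested fell, 7 rose and 2 did not pass, with a median log2 change of -0.23. Over all tested genes 42.9% fell and 43.1% rose, with a median of 0.00077. Ube2g2, a ubiquitin-conjugating enzyme of ERAD, fell 3.41-fold, from 143.3 ± 5.5 to 42.1 ± 0.98 FPKM, and the ligase gene Rnf185 2.69-fold. Rnf5, also an ER ligase, rose from 2.82 ± 0.27 to 14.6 ± 1.4 FPKM, and Aup1, which recruits UBE2G2, rose 2.22-fold.

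In the translocon and signal peptidase list 8 of 17 genes rose and 9 fell. Ssr4, a subunit of the translocon-associated complex, had the largest rise of any ER list (10.8 ± 1.2 to 90.7 ± 4.5 FPKM, 8.37-fold), while Srprb, the membrane anchor of the signal recognition particle receptor, fell 1.85-fold. In the list for N-glycosylation 7 of 17 genes rose, 7 fell and 3 did not pass. Over all tested genes the shares were 43.1% higher and 42.9% lower. Magt1, an oligosaccharyltransferase subunit, rose from 25.5 ± 2.0 to 45.7 ± 1.2 FPKM and the mannosidase gene Man1a fell from 8.95 ± 0.60 to 3.76 ± 0.26.

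Outside the ER, of 14 tested cytosolic and mitochondrial chaperone genes 8 rose, 4 fell and 2 did not pass (median log2 change 0.19), beside the same 43.1% and 42.9% of all tested genes. Hsp90ab1, a cytosolic counterpart of Hsp90b1, rose 2.32-fold, from 766.3 ± 35 to 1780 ± 85 FPKM, and Trap1, the mitochondrial HSP90, rose 2.53-fold. The HSP90 genes did not all rise: Hsp90aa1, the other cytosolic one, fell from 795.5 ± 8.3 to 696.4 ± 51 FPKM (limma adjusted p = 0.00146). Hsp90aa1 was named after its values were seen. Hsph1, a nucleotide exchange factor for HSP70, fell 1.79-fold.

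**Figure D4:**
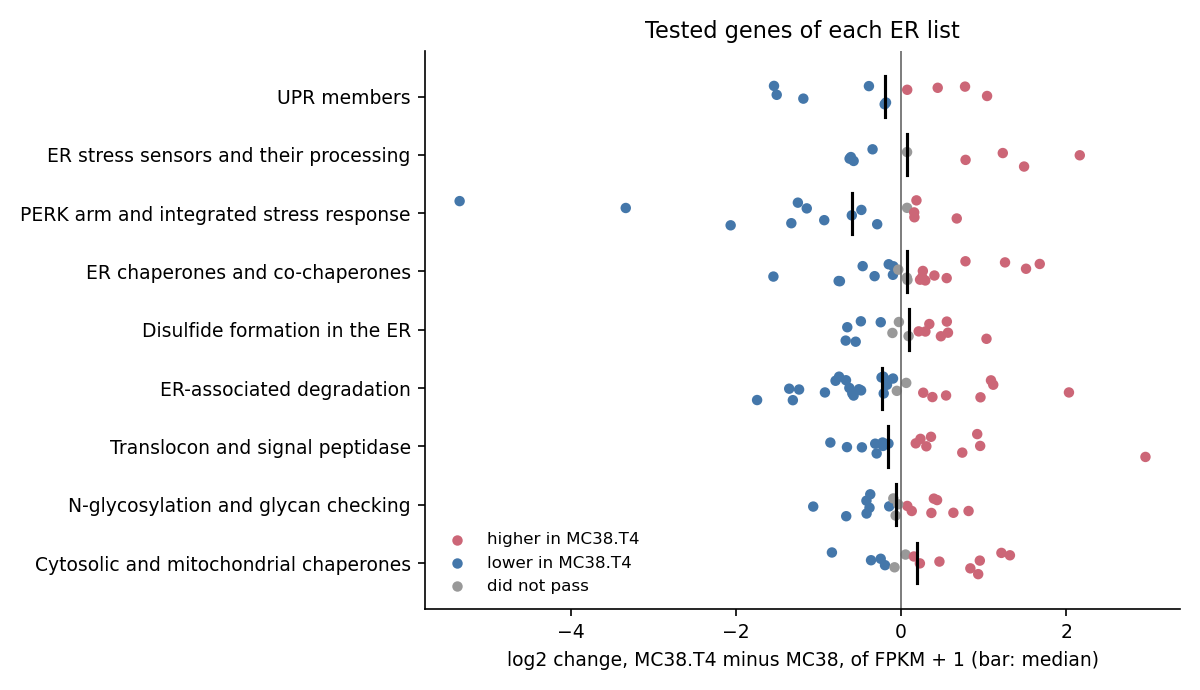
Log2 change of FPKM + 1 (MC38.T4 minus MC38) of every tested gene of the 10-gene set (labelled UPR members) and of 8 related lists, with a black bar at each median. Red and blue points passed the limma test as higher or lower and grey points did not. Every list holds changes in both directions. The lowest median, -0.60, is that of the integrated stress response list.

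An exact ERSE lay in the promoter windows of 8 of 113 other list genes (7.08%), against 0.137% of all genes. Of these 8, 7 were tested, and 3 rose (Calr, Creld2 and Pdia6), 2 fell (Canx and Ero1b) and 2 did not pass (Dnajc3 and Syvn1). Creld2 rose from 25.8 ± 1.8 to 38.2 ± 1.5 FPKM, Canx fell from 268.1 ± 4.1 to 250.3 ± 7.4 FPKM, and Dnajc3 stood at 23.03 ± 1.4 and 24.2 ± 1.0. Over all 15 tested genes with an exact ERSE, Hspa5 and Hsp90b1 included, 8 rose and 5 fell, with a median log2 change of 0.07. Over all tested genes 43.1% were higher and 42.9% lower. Among the 8 is Hsp90b1, whose call is not firm, and 15 genes are few, so nothing is read from the split. Creld2, Canx and Dnajc3 were named for their match after values were seen.

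The genes whose profile over the 10 libraries was most like that of Hspa5 were Stx3, Gpnmb and Orc5, among 8263 genes compared. Likeness was the root mean square difference of log2(FPKM + 1) after centring each gene on its mean. It was 0.03 for Stx3, 0.03 for Gpnmb and 0.04 for Orc5. Stx3, a syntaxin gene, went from 46.7 ± 0.77 to 15.7 ± 0.65 FPKM, Gpnmb, a transmembrane glycoprotein gene, from 385.4 ± 16 to 132.6 ± 5.4, and Orc5, a subunit of the origin recognition complex, from 35.7 ± 1.8 to 11.7 ± 0.47. None of these 3 is in the ER lists. Because Hspa5 differed widely between the lines and little within them, this measure mainly picks genes with a change of like size. The falls of the 3 genes therefore follow from how they were chosen.

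Defining markers of lymphocytes and plasma cells lay at trace levels. The 5 T, B and NK cell markers summed to at most 0.0614 FPKM in any library. Of 5 plasma cell markers, a type rich in ER, Jchain, Mzb1 and Tnfrsf17 were listed at 0 in all MC38 libraries and lay under 0.1 FPKM in MC38.T4. Prdm1 was low but higher in MC38.T4, at 0.0156 ± 0.011 FPKM in MC38 and 0.119 ± 0.031 in MC38.T4, with no overlap. Sdc1, which many tumour cells also express, stood at 25.4 ± 1.4 and 22.3 ± 0.66. The myeloid markers Adgre1, Csf1r, Cd68, Lyz2 and Itgam summed to 3.53 to 4.41 FPKM in MC38 and 1.94 to 3.30 in MC38.T4, mostly Cd68. The endothelial markers Pecam1, Cdh5, Kdr and Tek summed to 0.0442 to 0.122 FPKM in MC38 and 0.469 to 0.634 in MC38.T4, there mostly Pecam1. The fibroblast and pericyte markers summed to 15.6 to 19.8 FPKM in MC38 and 76.4 to 85.3 in MC38.T4, mostly Dcn, with Pdgfrb beside it in MC38.T4. The part of all these markers in the values above was not tested. In bulk RNA, fewer cells with a transcript and less of it per cell cannot be told apart.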

How the data were processed

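PolyA-selected, strand-specific RNA libraries of MC38 and MC38.T4 (5 each) were analysed. The authors deposited 1 table of FPKM, and per the submitters' processing notes the build was GRCm39 and DESeq2 was used, with no role or version given. The aligner, counting program, annotation and handling of reads shared by paralogues were not given in the sources used here. Read totals are unknown, so values carry no counting interval.

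Genes that reached an FPKM of 1 in 5 or more libraries were tested on log2(FPKM + 1) with limma 3.58.1 (R 4.3.3), trend and robust moderation, two-sided, with Benjamini-Hochberg adjustment over all 11110 genes and a threshold of 0.05. This scale understates changes of low genes. Folds are ratios of mean FPKM. Counts of 2-fold changes instead take genes that passed with a log2 change of FPKM + 1 of at least 1 in size. Python 3.11.15, pandas 2.3.3, NumPy 2.4.6 and matplotlib 3.10.9 were also used. Simulated data for the same genes had 200 of the 11110 genes changed and independent normal noise. There 74% of changes of 0.25 and 99% of changes of 1 (log2) were recovered, and 5.98% of calls were false. In the real data 86.0% of tested genes passed, so these rates are not the error rates of the calls reported here.

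The members, lists, tests and naming rule were chosen with earlier results of these data known. Named genes are the 10 members, Atf4, Ddit3 and Eif2ak3, up to 2 rises and 2 falls of each list with a mean FPKM of at least 5, the 3 genes most like Hspa5 and cell type markers with a mean of at least 5. Of 186 list symbols 185 were found directly and 1 through a RefSeq synonym (Srpra). Promoters are RefSeq on GRCm38.p6, another build than that of the table; Atf6 had no window. Other settings tried were TPM scaling, no filter, a minimum FPKM of 5, a pseudocount of 0.1, quantile normalization, equal medians, plain eBayes, array weights, a replicate block, a rank-sum test, leaving out each library and, chosen after seeing the data, dropping both libraries that stand apart.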

Additional observations from a re-analysis of the deposited data

Results flagged for a closer look

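In 94 groups of 5 values (47 genes in each line) 9 held a value whose gap to its neighbour was larger than Dixon's 95% limit, where chance flags about 1 in 20. Of these, 4 were of MC38 replicate 1, 4 of MC38.T4 replicate 4 and 1 of MC38 replicate 2. Among the unfolded protein response genes, Atf6 stood at 53.7 FPKM in MC38 replicate 1 (44.4 to 46.2 in the other MC38 libraries) and Xbp1 at 38.6 in MC38 replicate 2 (35.5 to 36.3). In MC38.T4 replicate 4, Ern1 stood at 22.8 FPKM (16.4 to 17.9 in the other MC38.T4 libraries) and Herpud1 at 64.6 (54.1 to 56.8).

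Among the other genes, MC38 replicate 1 was high for Ube2g2 (152.6 FPKM, against 139.2 to 142.9), for Magt1 (29.0, against 23.7 to 25.1) and for Eif2ak3 (6.87, against 5.78 to 6.08). MC38.T4 replicate 4 was low for Rnf5 (12.2 FPKM, against 14.7 to 15.7) and high for Gpnmb (142.1, against 128.8 to 131.1).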

How the results depend on the processing

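Over 21 alternatives, 9 of the 10 genes kept their direction and their call in all of them. The exception was Hsp90b1, whose log2 change of 0.07 (limma adjusted p = 0.0498) was no longer called with a minimum FPKM of 5 (0.0739, adjusted p = 0.0532), after TPM scaling (0.0257, adjusted p = 0.374), with equal medians (0.0457, adjusted p = 0.236) and without both libraries that stand apart (0.0583, adjusted p = 0.0827), and became a fall with quantile normalization (-0.162); the cause was not tested. Leaving out 1 library at a time gave 0.0570 to 0.0859, with the call lost for 9 of 10 libraries, all but MC38 replicate 2. With the replicate number as a block it was 0.0739 (adjusted p = 0.0782), and the block changed no other call of the 10 genes. The numbers are not shown to pair the libraries: correlations of same-numbered deviations lay between -0.129 and 0.142. Eif2ak3 changed sign with quantile normalization (-0.0123). The counts of rises and falls of the 10 genes, of each list and of all tested genes stayed within 1.5 times the reported ones. Scalings moved the median of all genes by at most 0.05. Depth is known only relatively, which limits what can be said of low genes.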

Other observations

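Neighbouring genes of the 10 members did not share their moves in a uniform way. Each gene was set beside the 5 tested genes on either side of it, in the order of the RefSeq table of GRCm38.p6, a description added after seeing the data. Over all tested genes 43.1% rose and 42.9% fell. Pdia4 on chromosome 6 rose (log2 change 1.04) among 10 neighbours of which 9 fell and 1 rose (median -0.55). Atf6 on chromosome 1 fell (-1.18) among 5 rises and 5 falls (median 0.04). Hspa5 on chromosome 2 fell (-1.54) among 2 rises and 6 falls (median -0.26), and Dnajb9 on chromosome 12 (-1.51) among 2 rises and 7 falls (median -0.46). Hsp90b1 on chromosome 10 stood almost level among 2 rises and 7 falls (median -0.33). Sdf2l1 on chromosome 16 rose (0.77) among 7 rises and 3 falls (median 0.35), and Edem1 on chromosome 6 (0.44) among 6 rises and 3 falls (median 0.22). The falls of Ern1 and Xbp1 on chromosome 11 lay among 2 rises and 7 falls (median -0.33) and 4 rises and 6 falls (median -0.22), and that of Herpud1 on chromosome 8 among 5 rises and 2 falls (median 0.05).

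Atf6b and Rnf5, which had the largest rises of their lists, are near neighbours on chromosome 17, with 3 tested genes between them. Of the 10 neighbours of Atf6b 8 rose and 1 fell (median log2 change 0.74), and of those of Rnf5, which include the antigen-processing genes Psmb9, Tap1, Psmb8 and Tap2, 8 rose and 1 fell (median 0.65). These sets have 5 genes in common and each holds the other gene, so the counts are largely of the same genes. The 2 lists' leading rises are therefore not from separate places in the genome, and the part of the shared position was not tested.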
